A study of Mus musculus with 18 samples.

Results

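The stroma of the salivary gland 8 days after a virus was compared with that of uninfected glands, using 6 of the 18 libraries of the series. The members were taken by title: 3 libraries at day 8 (replicates 1 to 3) and 3 at hour 0 (replicates 10 to 12). All came from wild-type Balb/c mice aged 8 to 12 weeks, and each library is listed with a mouse of its own. The submandibular glands of the day 8 mice had been cannulated through the duct with adenovirus 5 (Ad5), a vector unable to replicate, which induces ectopic lymphoid structures in this gland. The hour 0 mice were not infected. Cells bearing gp38 (podoplanin, the product of Pdpn), a glycoprotein of fibroblasts and of the stroma of lymphoid organs, were sorted from both, and their RNA was sequenced. No group was cannulated without virus, so the procedure and the virus cannot be told apart.

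Fibroblasts of a gland make and remodel its matrix and supply growth factors to the epithelium. In an inflamed gland they can take on traits of lymphoid stroma, making chemokines such as Cxcl13 and Ccl19 that attract lymphocytes, and such cells are called immunofibroblasts. Interferons, released when a virus is sensed (type I) or by activated T and NK cells (interferon-gamma), act through STAT and IRF factors on separate but overlapping sets of target genes. These include the genes of antigen presentation.

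The day 8 libraries held 12033146, 14041925 and 15234431 counts and the hour 0 libraries 8542729, 7153873 and 10619144. All genes of the mitochondrial chromosome, ribosomal and transfer RNA genes included, took 14.6% ± 1.56 of the counts at day 8. At hour 0 they took 6.45% ± 0.847 (SD, n = 3 each). Genes of saliva proteins took 6.61% to 15.9% and 4.33% to 9.24%. Levels are therefore given as CPM, read counts scaled to a common library size with TMM factors, which are taken from the bulk of the genes. The 13 mitochondrial genes that encode proteins summed to 5953 to 8307 CPM at hour 0 and 9241 to 12670 CPM at day 8. They thus held a small part of the mitochondrial counts. Day 8 shares a run of replicate numbers (1 to 9) with hour 3 and day 23, and hour 0 shares the run 10 to 18 with day 1 and day 2. The labels do not say what the runs stand for, and run and time cannot be told apart here. The hour 0 libraries carried 59.6 times as many counts per kb of exon on the 1504 olfactory, vomeronasal and taste receptor genes (0.134 ± 0.0361 CPM per kb against 0.00225 ± 0.000223). Only the 11391 genes with 5 CPM or more in at least 3 of the 6 libraries were therefore tested.

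Of these genes 3510 (30.8%) changed between hour 0 and day 8, by edgeR's quasi-likelihood test with a Benjamini-Hochberg adjusted p under 0.05. The 1702 that were higher at day 8 (14.9%) are said below to have risen, and the 1808 that were lower (15.9%) to have fallen. Without day 8 replicate 2 the total was 2313. With scaling by library totals alone, 1094 rose and 2863 fell, and the median log2 fold change of all genes moved from -0.02 to -0.24 (all fold changes are day 8 minus hour 0). The split by direction thus depends on the scaling, and the counts of each gene list below are read against these shares.

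The labelled identity was checked first against 9 fibroblast markers. Col1a1, the alpha 1 chain of type I collagen, was at 5888, 5241 and 5065 CPM at hour 0 and at 6372, 5308 and 5917 CPM at day 8. Col3a1, a type III collagen chain, averaged 9245 CPM at hour 0 and 10625 CPM at day 8, and neither collagen passed the test. Pdpn, the gene of the sorted protein, was at 70.9, 59.8 and 62.5 CPM at hour 0 and at 69.1, 52.4 and 67.9 CPM at day 8, so the groups overlapped (log2 fold change -0.03 ± 0.22 SE, edgeR adjusted p = 0.936). The defining fibroblast genes were thus abundant in both groups, and the summed level of the 9 was 26835 to 30730 CPM at hour 0 and 23901 to 27366 CPM at day 8. Dcn (decorin), Pdgfra and Pdgfrb (receptors of platelet-derived growth factors) fell within this list. Pdgfrb lost its call without day 8 replicate 2 or 3 or hour 0 replicate 10 or 11. The 30 acinar and duct secretory genes summed to more than these 9 markers, at 37973 to 84570 CPM at hour 0 and 61596 to 173115 CPM at day 8.

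Markers of other cell types were present in both groups, and several lists were higher at day 8. The 21 macrophage, monocyte and dendritic markers summed to 46.2 to 84.4 CPM at hour 0 and 233 to 303 CPM at day 8. Of the 14 that passed the filter 10 rose and 0 fell. Members low at hour 0 could pass the filter through day 8 alone, here and in the lists below, so these counts describe the members that passed and not the whole list. With a filter on other groups (a mean of 5 CPM or more at hour 3 or day 23, chosen after the data were seen) 10 passed and 8 rose. Lyz2, lysozyme of macrophages, went from 2.77, 4.34 and 4.31 CPM to 48.0, 47.0 and 43.0 CPM, and Ptprc (CD45, of leukocytes) from 4.52, 11.7 and 7.07 CPM to 51.7, 36.0 and 33.0 CPM. The groups did not overlap for either gene. The 17 epithelial and myoepithelial markers summed to 620 to 973 CPM at hour 0 and 3312 to 3933 CPM at day 8, and the 15 blood endothelial markers to 122 to 139 and 225 to 279 CPM. None of the 20 T and NK cell markers reached the filter, with sums of 21.8 to 38 CPM at hour 0 and 37.6 to 68.9 CPM at day 8. These ranges overlapped only at their ends, and hour 0 carried more background at such low levels. Whether these markers rose was not tested. The 14 B and plasma cell markers summed to 15.6 to 30.5 and 12.0 to 17.4 CPM. Ms4a1 (CD20) was at 4.01, 7.20 and 1.98 CPM at hour 0 and at 0, 0 and 0.571 CPM at day 8, and Tnfrsf17 of plasma cells had 0 counts at day 8. Both were below the filter, where hour 0 carried more background. The 1 member that passed went the other way, with a log2 fold change of 1.73, and was not called. In sorted bulk samples, more cells of a type and more RNA per cell cannot be told apart, and the part of these cells in the results below was not tested.

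**Figure D1:**
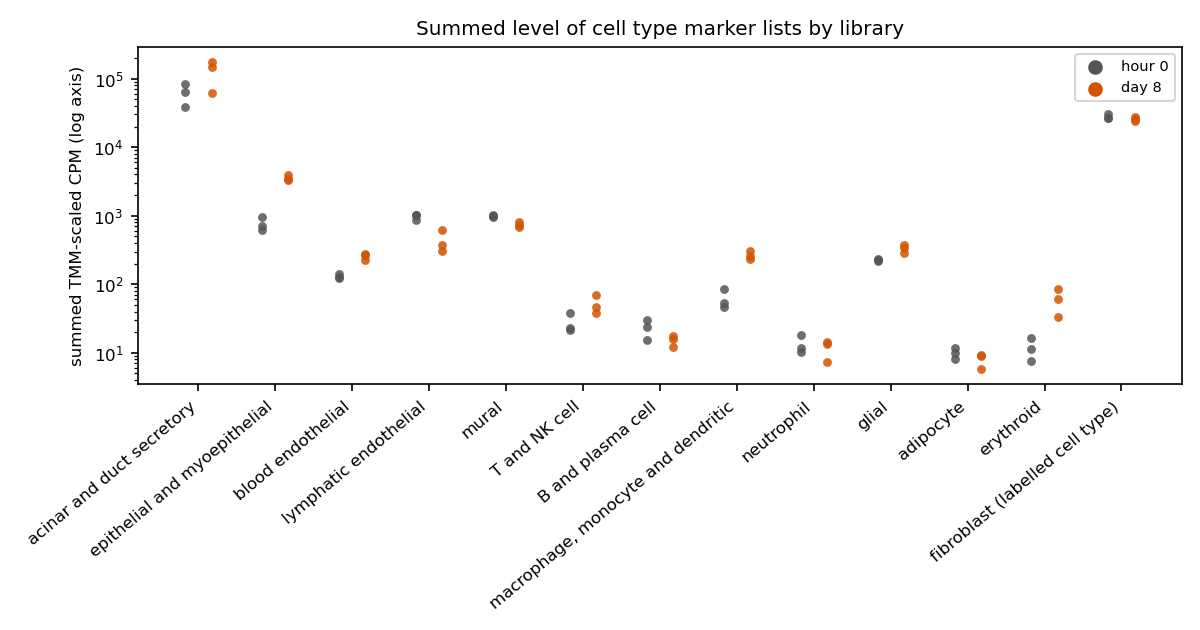
Summed TMM-scaled CPM (log axis) of each cell type marker list, with 1 point per library (grey, hour 0; orange, day 8). The macrophage, monocyte and dendritic sum is 46.2 to 84.4 CPM at hour 0 and 233 to 303 CPM at day 8. The fibroblast sum is 26835 to 30730 CPM at hour 0 and 23901 to 27366 CPM at day 8, so the groups overlap in part.

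Antigen presentation by MHC class I, the route by which cells show fragments of their own proteins to CD8 T cells, rose across nearly the whole list. Of 19 genes of this route, 18 rose and 0 fell (94.7% against 14.9% of all genes), with a median log2 fold change of 1.16. H2-K1, a classical heavy chain (ENSMUSG00000061232, chromosome 17, 33996017 to 34000347), was at 456, 534 and 809 CPM at hour 0 and at 2916, 2350 and 2528 CPM at day 8. Each day 8 library was above each hour 0 library, and the log2 fold change was 2.11 ± 0.22 (SE, edgeR adjusted p = 1.36e-06). H2-D1, the other classical chain, went from 669, 717 and 959 CPM to 2583, 2012 and 2274 CPM (log2 fold change 1.55). B2m, the light chain shared by all class I molecules (ENSMUSG00000060802, chromosome 2, 122147686 to 122153083), went from 532, 494 and 681 CPM to 1149, 925 and 1083 CPM. Its change of 0.89 ± 0.20 was smaller than that of the heavy chains. The non-classical genes H2-Q6 and H2-Q7 rose by 2.59 ± 0.32 and 2.80 ± 0.28, but these neighbours on chromosome 17 are close in sequence, and how reads shared between such copies were counted is not given in the sources used here. The peptide supply rose as well: Tap1, a subunit of the peptide transporter, by 1.78 ± 0.24, and the immunoproteasome subunits Psmb8 and Psmb9 by 1.71 and 1.23. Nlrc5, the activator of class I transcription, went from 28.0 to 77.8 CPM on average. The member without a call was Psmb10, at 21.4 CPM at hour 0 and 31.4 CPM at day 8 (edgeR adjusted p = 0.0546), and it was called without day 8 replicate 2 or hour 0 replicate 11. Leaving out any 1 library left 18 or 19 rises.

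Genes that respond to interferon-gamma rose alongside. Of the 22 on the list 21 passed the filter, 18 rose and 0 fell, with a median log2 fold change of 1.54, and 13 to 18 rose when 1 library was left out (13 without day 8 replicate 1). Cxcl9, a chemokine that draws T cells through CXCR3, was at 4.21, 6.21 and 19.4 CPM at hour 0 and at 120, 48.2 and 72.4 CPM at day 8. The groups did not overlap, although both varied several-fold between mice (log2 fold change 2.98 ± 0.53, edgeR adjusted p = 0.000285). Cxcl10, a second ligand of that receptor, went from 10.4, 24.8 and 17.5 CPM to 80.1, 31.1 and 42.3 CPM. The guanylate-binding proteins, GTPases that attack the vacuoles of intracellular pathogens, rose in each of the 9 genes measured, Gbp2 to Gbp10, although Gbp5 lost its call without day 8 replicate 1. Members of this family are also close in sequence and could share reads, so the 9 may not be separate rises. Gbp2 went from 83.8, 86.7 and 117 CPM to 389, 190 and 264 CPM (log2 fold change 1.55 ± 0.35), and Gbp10 rose by 2.99 ± 0.50. The immunity-related GTPases Irgm1 (37.5, 39.3 and 44.9 CPM against 166, 97.4 and 129 CPM), Igtp and Irgm2 rose too. Among their relatives, Tgtp1 rose by 4.70 ± 0.60 and Tgtp2 by 2.34 ± 0.37. Tgtp1 and Tgtp2 are close copies, so their shares of the reads are uncertain. Cd274 (PD-L1, an inhibitory ligand for T cells) went from 5.55, 7.20 and 12.9 CPM to 33.6, 18.8 and 23.3 CPM. In each of the 18 risen members day 8 replicate 1 was the highest library. How often this held among all risen genes was not counted, so it is not read as a trait of this list. The members without a call were Irf1, Irf8 and Socs1, and Ido1 was below the filter. Ifng itself had 0 counts in the 3 hour 0 libraries and was at 0.465, 0.825 and 0.214 CPM at day 8.

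The promoters of these genes are shown because the members moved together. They are RefSeq windows on GRCm38.p6, from 250 bases before to 50 after the annotated start. Capitals mark matches, on either strand, to GAAA followed by any 2 bases and GAAA again (TTTC, 2 bases and TTTC on the other strand), the core of the interferon-stimulated response element, and to TTCNNNGAA, the palindrome of the gamma-activated site. The windows belong to Tgtp1 (chr11:48992197-48992496, minus strand), Irgm1 (chr11:48871371-48871670, minus strand), Gbp5 (chr3:142496684-142496983, plus strand), Cxcl9 (chr5:92328030-92328329, minus strand) and B2m (chr2:122147437-122147736, plus strand).
Tgtp1: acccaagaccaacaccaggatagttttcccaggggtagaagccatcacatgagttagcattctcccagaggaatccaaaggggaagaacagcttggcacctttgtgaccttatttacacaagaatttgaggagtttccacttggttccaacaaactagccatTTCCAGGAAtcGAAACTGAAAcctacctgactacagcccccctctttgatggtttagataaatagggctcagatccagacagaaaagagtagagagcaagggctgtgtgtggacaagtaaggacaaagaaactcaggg
Irgm1: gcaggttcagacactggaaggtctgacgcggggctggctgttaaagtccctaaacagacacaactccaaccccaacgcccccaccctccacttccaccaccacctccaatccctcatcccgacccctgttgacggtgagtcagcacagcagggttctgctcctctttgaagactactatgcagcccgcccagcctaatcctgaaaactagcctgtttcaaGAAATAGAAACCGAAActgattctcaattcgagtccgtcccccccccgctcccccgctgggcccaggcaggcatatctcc
Gbp5: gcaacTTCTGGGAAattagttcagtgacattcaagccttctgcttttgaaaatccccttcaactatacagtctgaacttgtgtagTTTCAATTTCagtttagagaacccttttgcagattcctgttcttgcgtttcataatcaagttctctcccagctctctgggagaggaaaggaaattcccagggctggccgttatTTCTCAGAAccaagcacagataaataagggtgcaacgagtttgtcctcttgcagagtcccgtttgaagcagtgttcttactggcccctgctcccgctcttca
Cxcl9: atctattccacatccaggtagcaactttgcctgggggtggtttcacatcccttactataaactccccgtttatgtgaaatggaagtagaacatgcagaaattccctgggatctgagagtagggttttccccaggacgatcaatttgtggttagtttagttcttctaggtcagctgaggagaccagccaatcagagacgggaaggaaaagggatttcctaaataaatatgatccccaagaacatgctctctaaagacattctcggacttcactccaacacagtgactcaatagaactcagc
B2m: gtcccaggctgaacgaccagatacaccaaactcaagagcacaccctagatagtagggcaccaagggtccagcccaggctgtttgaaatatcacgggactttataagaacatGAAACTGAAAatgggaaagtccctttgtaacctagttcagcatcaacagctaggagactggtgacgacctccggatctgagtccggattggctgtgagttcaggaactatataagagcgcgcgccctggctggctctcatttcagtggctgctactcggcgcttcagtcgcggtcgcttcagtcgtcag
Tgtp1 carries 1 match to each motif. Irgm1 carries 2 overlapping matches to the paired GAAA, Gbp5 carries 1 of that motif and 2 of the palindrome, B2m carries 1 of the first and Cxcl9 none of either. A window was available for 15 of the 22 interferon-gamma-responsive genes, and 11 of the 15 (73.3%) held the paired GAAA and 8 (53.3%) held TTCNNNGAA. Among all 27025 genes with a window the shares were 3.99% and 9.55%, and among the 8783 tested genes with one they were 3.84% and 8.07%. For the type I targets the counts were 14 (58.3%) and 5 (20.8%) of 24, and for the MHC class I genes 5 (31.2%) and 1 (6.25%) of 16. A match describes these letters only, and no match says nothing of the factor.

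The MHC class II genes, which present engulfed protein to CD4 T cells and are carried mainly by professional antigen-presenting cells, had the largest median change of the process lists. Of 9 members 8 passed the filter and 6 rose, with a median log2 fold change of 3.64. DESeq2 called 3 of them (Cd74, Ctss and H2-DMb1) and gave no adjusted p for H2-Aa, H2-Ab1 and H2-Eb1. Cd74, the invariant chain, was at 14.9, 23.2 and 40.4 CPM at hour 0 and at 412, 326 and 338 CPM at day 8 (log2 fold change 3.77 ± 0.51, edgeR adjusted p = 2.12e-05). H2-Ab1, a class II beta chain, went from 3.8, 11.3 and 17.0 CPM to 196, 139 and 140 CPM, and H2-Aa, its alpha partner, from 6.60 to 75.0 CPM on average. Ctss (cathepsin S, which trims the invariant chain) went from 3.70, 3.23 and 5.95 CPM to 99.5, 94.1 and 76.4 CPM. The groups stood clearly apart for these genes. Ciita, the master regulator of class II transcription, was at 4.11, 6.70 and 8.88 CPM and at 17.7, 11.0 and 10.3 CPM and was not called (edgeR adjusted p = 0.298). The myeloid markers rose by amounts of the same order (C1qa, a complement C1q chain made by macrophages, by 3.32 ± 0.57; Lyz2 by 3.59 ± 0.50), and their part in the class II rise was not tested.

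Type I interferon targets were less uniform. Of 34 genes 14 rose (41.2%) and 1 fell, with a median log2 fold change of 0.32. Irf7, the factor that amplifies type I interferon, was at 45.6, 53.4 and 46.5 CPM at hour 0 and at 161, 89.4 and 125 CPM at day 8 (log2 fold change 1.37 ± 0.21, edgeR adjusted p = 8.03e-05). Ifi44 and Isg15 rose by 1.63 ± 0.22 and 1.30 ± 0.28. The classical antiviral effectors Ifit1 (42.7 and 51.0 CPM on average) and Ifit3 (88.8 and 82.4 CPM) overlapped between the groups and were not called. Mx1, another member of the list, fell from 16.1, 19.1 and 13.1 CPM to 12.7, 5.70 and 7.57 CPM. In the early groups Isg15 averaged 119 CPM at hour 3 and 216 CPM at day 1, against 18.3 CPM at day 8. The count of rises was 6 with scaling by library totals and 6 without day 8 replicate 1, and it was 8, 7 and 9 without day 8 replicate 3, hour 0 replicate 10 or hour 0 replicate 11. The fall of Mx1 was lost without day 8 replicate 2 or 3, or hour 0 replicate 10 or 11.

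Genes that mark lymphoid stroma did not rise as a list. Of 24 genes 15 passed the filter, 2 rose and 3 fell, with a median log2 fold change of 0.07. Cxcl13, the B cell chemokine (ENSMUSG00000023078, chromosome 5, 95956951 to 95961068), was at 17.7, 14.6 and 10.5 CPM at hour 0 and at 13.4, 5.78 and 7.92 CPM at day 8. These groups overlapped (log2 fold change -0.66 ± 0.35, edgeR adjusted p = 0.166), and without day 8 replicate 1 the gene was called lower, at -1.05 (adjusted p = 0.045). For comparison, Cxcl13 averaged 532 CPM at day 1 and 115 CPM at day 2. Ccl19, the chemokine of T cell zones, was below the filter at 0.308, 1.37 and 1.12 CPM against 1.47, 0.225 and 0.999 CPM, and Ccl21a stayed under 1 CPM in the 6 libraries. The adhesion molecules Vcam1 (85.8 and 129 CPM on average) and Icam1 (106 and 151 CPM) were not called, with edgeR adjusted p of 0.0915 and 0.0832, and Icam1 was called without hour 0 replicate 12. Cxcl12 and Ltbr, the receptor through which lymphotoxin shapes this stroma, were not called either. The members that fell were Enpp2 (autotaxin, which makes lysophosphatidic acid; 1164, 984 and 1053 CPM against 552, 483 and 581 CPM), Fap (fibroblast activation protein, 160 to 90.0 CPM) and Il33 (an alarmin, 165 to 121 CPM). Il33 kept its call in 1 of the 6 fits that left out a library, that without day 8 replicate 1. The rises were Clec2d (log2 fold change 0.83) and Cyp7b1 (0.69), and neither kept its call without day 8 replicate 1 or 3 or hour 0 replicate 10 or 11. Clec2d also lost it without day 8 replicate 2, and Cyp7b1 without hour 0 replicate 12.

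Of 23 inflammatory cytokines and chemokines 13 passed the filter, 4 rose (30.8% of the 13, against 14.9% of all genes) and 1 fell, with a median log2 fold change of 0.62. Il1b, made mostly by myeloid cells, was at 1.95, 1.61 and 0.259 CPM at hour 0 and at 22.7, 20.9 and 16.5 CPM at day 8 (log2 fold change 4.01 ± 0.47, edgeR adjusted p = 4.17e-06). Cxcl16, a membrane-bound chemokine, rose by 0.87 ± 0.16, and Ccl7 and Il34, ligands for monocyte receptors, by 1.5 and 0.80, and Il34 lost its call without day 8 replicate 1 or 2 or hour 0 replicate 10 or 12. The eosinophil chemokine Ccl11 fell from 330, 335 and 318 CPM to 188, 136 and 172 CPM. Il6 was at 12.2, 7.82 and 49.2 CPM at hour 0 and at 45.5, 18.5 and 28.5 CPM at day 8. The hour 0 spread came from replicate 12, and without it the log2 fold change went from 0.40 (edgeR adjusted p = 0.62) to 1.62 (0.0281). Of 16 NF-kB genes that passed the filter, 8 rose and 0 fell. Among them, Tnfaip3 (A20, which ends NF-kB signalling) went from 43.6, 45.4 and 44.4 CPM to 215, 125 and 126 CPM, and Nfkbia, the inhibitor that NF-kB induces, from 98.4, 97.7 and 104 CPM to 217, 142 and 182 CPM. The subunit Rel rose by 1.41 ± 0.27, while Rela and Nfkb1 were not called. The count of NF-kB rises was 4 with library totals or without day 8 replicate 1, and 5 without hour 0 replicate 10 or 11.

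Of 25 immediate-early genes, which cells switch on within minutes of a stimulus or of handling, 9 rose and 0 fell. Atf3, a stress-induced repressor, was at 225, 178 and 382 CPM at hour 0 and at 751, 789 and 682 CPM at day 8. Btg2, an antiproliferative gene, went from 316, 254 and 356 CPM to 770, 974 and 785 CPM, and Klf6 and Myc rose by 1.16 ± 0.19 and 1.08 ± 0.23. The best-known members were not called, with Fos at 2252 and 2504 CPM on average and Egr1 at 2103 and 1547 CPM. Without day 8 replicate 1 the count of rises was 5.

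Cell cycle genes were higher at day 8. Of 34 genes 25 passed the filter, 21 rose (84.0%) and 0 fell, with a median log2 fold change of 1.38. Mki67, the standard marker of dividing cells (ENSMUSG00000031004, chromosome 7, 135689784 to 135716361), was at 8.83, 13.5 and 25 CPM at hour 0 and at 132, 173 and 105 CPM at day 8. The lowest day 8 library was above the highest hour 0 library, and the log2 fold change was 3.10 ± 0.33 (edgeR adjusted p = 1.72e-06). Top2a, the topoisomerase that untangles chromosomes, went from 5.44, 21 and 14.1 CPM to 61.4, 75.0 and 46.5 CPM. Rrm2, which supplies deoxynucleotides, rose by 3.63 ± 0.47, Cdc20, which triggers anaphase, by 3.03 ± 0.51, and the replication helicase subunit Mcm6 by 1.6 ± 0.28. Among the 11 members with a mean of 5 CPM or more at hour 3 or day 23, 10 rose. Without day 8 replicate 2 the count was 13 of 25. Epithelial, endothelial and myeloid markers were higher in the same libraries, and their part in this rise was not tested.

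The genes of the resting fibroblast moved the other way. Of 30 genes 29 passed the filter, 16 fell (55.2% against 15.9% of all genes) and 1 rose, with a median log2 fold change of -0.80. Gsn (gelsolin, which severs actin; ENSMUSG00000026879, chromosome 2, 35256380 to 35307892), among the most abundant genes of these cells, was at 23564, 18298 and 17596 CPM at hour 0 and at 6288, 5113 and 6586 CPM at day 8. The groups lay far apart (log2 fold change -1.72 ± 0.24, edgeR adjusted p = 3.36e-05). Abca8a, a lipid transporter, went from 1309, 1087 and 1071 CPM to 285, 338 and 320 CPM, and Igfbp6, which binds IGF2, from 266, 179 and 204 CPM to 43.0, 32.9 and 74.8 CPM. The homeobox factor Meox2 fell by 2.17 ± 0.30. Markers of adventitial, progenitor-like fibroblasts fell with them: Cd34 from 399, 324 and 425 CPM to 116, 97.1 and 152 CPM, Clec3b by 1.6 and Pi16 by 1.35. Pdgfra went from 2217, 2032 and 1899 CPM to 1332, 1011 and 1081 CPM. Not all members did so: Dpp4 and Ly6a, markers of the same cells, averaged 61.8 and 88.0 CPM at hour 0 and 85 and 107 CPM at day 8 and were not called. The Wnt antagonist Sfrp1 rose from 77.1, 72.2 and 96.0 CPM to 201, 133 and 133 CPM, a call lost without day 8 replicate 1. Between 13 and 18 members fell when 1 library was left out, and 22 fell with scaling by library totals.

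**Figure D2:**
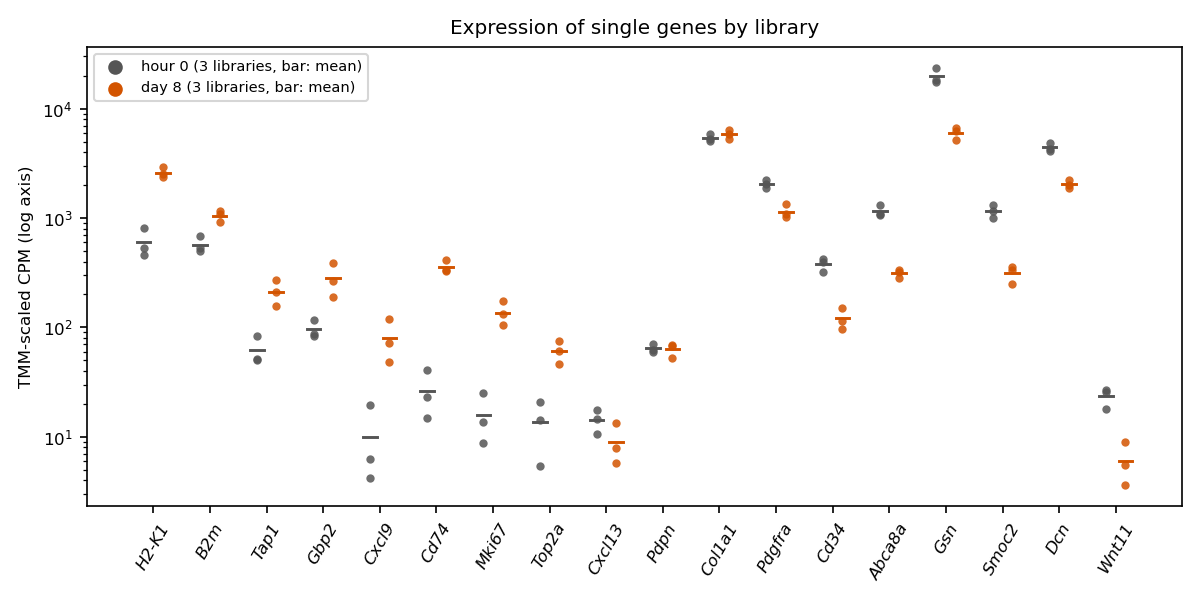
TMM-scaled CPM (log axis) of 18 genes in the 3 hour 0 libraries (grey) and the 3 day 8 libraries (orange), bars at the means. H2-K1 goes from a mean of 600 to 2598 CPM and Mki67 from 15.8 to 137 CPM, Pdpn stays at 64.4 and 63.1 CPM, and Gsn goes from 19819 to 5995 CPM.

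Growth factors and morphogens, the signals by which stroma instructs epithelium, were lower in 15 of the 36 genes that passed the filter and higher in 4, with a median log2 fold change of -0.36. Wnt11, a ligand of non-canonical Wnt signalling, was at 27, 18.0 and 25.7 CPM at hour 0 and at 5.58, 3.60 and 8.99 CPM at day 8 (log2 fold change -1.96 ± 0.30, edgeR adjusted p = 8.11e-05). Wnt2b, Wnt5a and the Wnt potentiator Rspo1 fell too, as did Bmp2 and Bmp4. Bmp4 went from 85.6, 71.9 and 60.4 CPM to 28.8, 30.5 and 33.5 CPM. Fgf10, which drives branching and upkeep of salivary epithelium, went from 217, 171 and 137 CPM to 95.7, 82.0 and 78.0 CPM, a call lost without hour 0 replicate 10. The neurotrophin Ntf3 fell by 1.88 ± 0.43. Hbegf, a ligand of the EGF receptor, rose by 1.74 ± 0.21, from 7.60, 10.4 and 12.0 CPM to 40.4, 34.0 and 25.9 CPM. The other rises were Wnt4, Pdgfa and Dkk3, and 1 or 2 of the 4 rises were called whichever of the 6 libraries was left out. The count of falls was 10 without day 8 replicate 2.

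Of 45 matrix glycoproteins and proteoglycans that passed the filter 25 fell (55.6% against 15.9% of all genes) and 4 rose (2 with library totals), with a median log2 fold change of -0.63. Smoc2, a matricellular protein, went from 1316, 1005 and 1153 CPM to 247, 336 and 357 CPM (log2 fold change -1.89 ± 0.24, edgeR adjusted p = 9.3e-06), with no overlap. Dcn, a small proteoglycan on collagen fibrils, went from 4888, 4112 and 4286 CPM to 2008, 1874 and 2222 CPM. Hspg2 (perlecan, of basement membranes) went from 7014, 6467 and 5234 CPM to 3182, 3144 and 3048 CPM, and the laminin chains Lama2 and Lamb1 fell beside it. The 4 rises were Thbs1 (446, 388 and 593 CPM against 1361, 801 and 764 CPM), Thbs2, Postn (135, 126 and 135 CPM against 244, 310 and 307 CPM) and Ccn1, matricellular proteins known from wounds. The call of Thbs1 was lost without day 8 replicate 1 or hour 0 replicate 10 or 11, and that of Postn without day 8 replicate 2 or hour 0 replicate 11. Of 29 collagens 6 fell (20.7%, near the 15.9% of all genes) and 0 rose. Col5a3 went from 1403, 1387 and 1069 CPM to 559, 616 and 514 CPM, and Col27a1 and Col14a1 fell by 1.26 ± 0.31 and 0.82 ± 0.21. The fibril-forming chains Col1a1, Col1a2 and Col3a1 were not called, with log2 fold changes of 0.12, -0.19 and 0.20. With library totals 11 collagens fell, and with a fit of the 6 libraries alone 12 fell.

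Of 36 matrix-remodelling enzymes and inhibitors that passed the filter, 13 fell and 1 rose (Adam12, a call kept without hour 0 replicate 11 but lost without any other library). The inhibitor Timp2 went from 1063, 823 and 905 CPM to 484, 406 and 572 CPM, the urokinase Plau from 457, 463 and 410 CPM to 200, 239 and 250 CPM, and Mmp19 fell by 0.97 ± 0.16. The collagenolytic enzymes Mmp2 and Mmp14 were not called. Without day 8 replicate 2 or hour 0 replicate 10 the count of falls was 8. Contractile genes of smooth muscle and myofibroblasts showed 3 falls (21.4%, near the 15.9% of all genes) and 0 rises among 14. Smtn (smoothelin) went from 289, 266 and 223 CPM to 119, 107 and 99.0 CPM, whereas Acta2, alpha smooth muscle actin, was at 277, 234 and 170 CPM and at 165, 233 and 164 CPM and was not called. Mural genes of the vessel wall divided: Rgs5, a pericyte marker, went from 7.29, 10.9 and 4.22 CPM to 69.3, 73.4 and 76.7 CPM and Notch3 from 9.04, 14.8 and 19.9 CPM to 81.5, 80.6 and 70.9 CPM. Cspg4 (NG2), also used as a pericyte marker, fell from 239, 248 and 229 CPM to 79.5, 90.0 and 82.9 CPM. Together the 11 mural markers summed to 963 to 1018 CPM at hour 0 and 675 to 815 CPM at day 8. Most of this sum was Cspg4 and Pdgfrb (441 and 312 CPM on average), which is also on the fibroblast list, so the sum does not follow Rgs5 and Notch3.

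**Figure D3:**
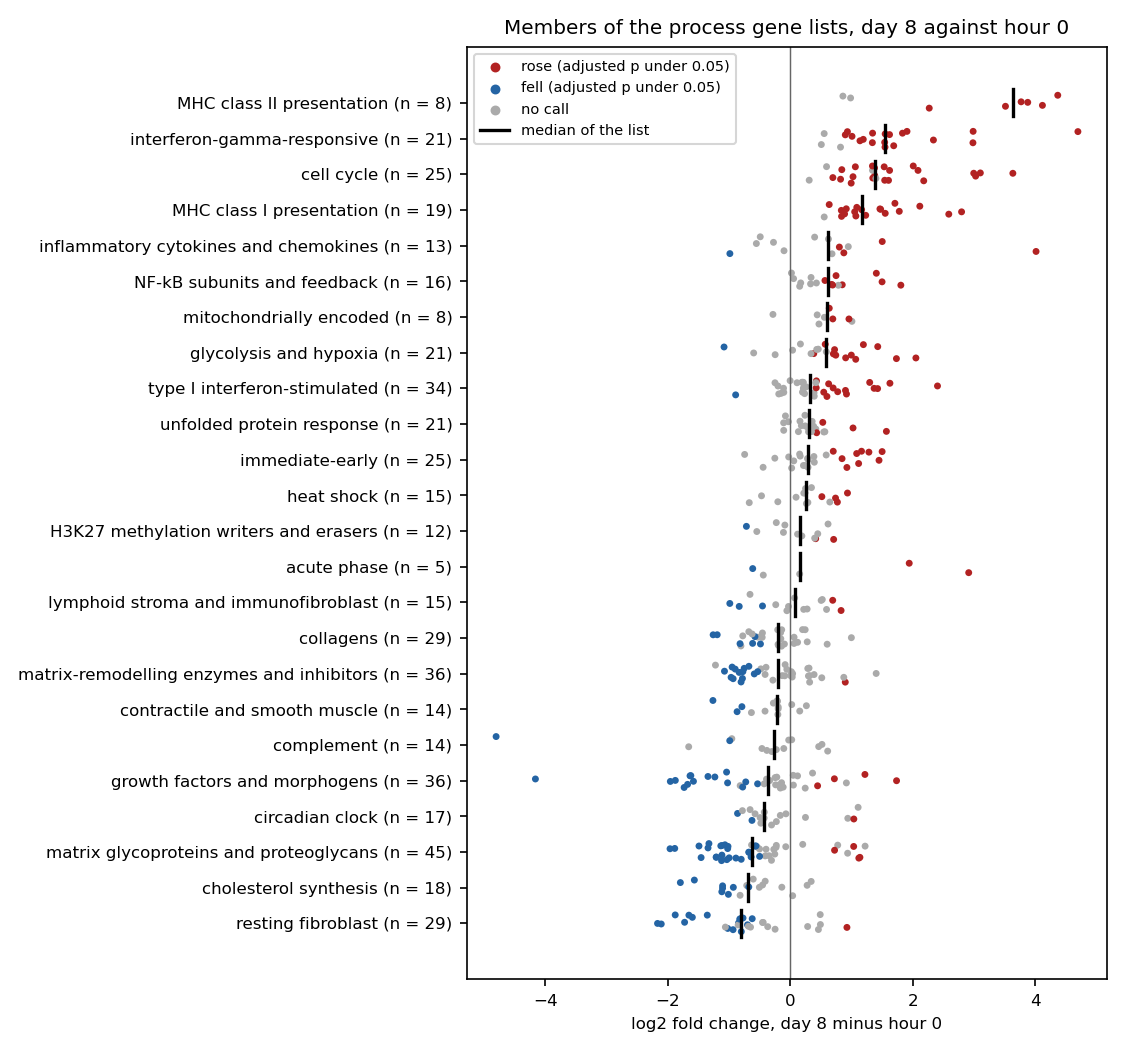
Log2 fold change (day 8 minus hour 0) of each tested member of the process gene lists, with 1 point per gene (red, rose; blue, fell; grey, no call) and a black bar at the list median. MHC class II, interferon-gamma-responsive, cell cycle and MHC class I genes lie to the right, with medians of 3.64, 1.54, 1.38 and 1.16, and resting fibroblast genes lie to the left with a median of -0.80.

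Metabolic genes moved in both directions. Of 21 glycolysis and hypoxia genes that passed the filter 12 rose and 1 fell, with a median log2 fold change of 0.59. The fall, of Pfkfb4, was lost without day 8 replicate 1 or 2 or hour 0 replicate 10 or 11, and 8 genes rose without day 8 replicate 2. Hk2, the inducible hexokinase, was at 33.7, 39.7 and 43.4 CPM at hour 0 and at 166, 99.7 and 123 CPM at day 8 (log2 fold change 1.73 ± 0.23, edgeR adjusted p = 2.09e-05), and the glucose transporter Slc2a1 rose by 1.43 ± 0.22. Of 18 cholesterol synthesis genes 8 fell and 0 rose, with a median of -0.69. Sqle (squalene epoxidase) went from 25.7, 27.8 and 27.8 CPM to 9.45, 7.35 and 10.6 CPM, and Srebf2, the factor that drives this pathway, fell by 0.93. Without day 8 replicate 2 the count of falls was 5. Of 15 heat shock genes 4 rose (26.7% against 14.9% of all genes) and 0 fell, led by Hspb8, a small heat shock protein (log2 fold change 0.93 ± 0.18), and the inducible chaperones Hspa1a and Hspa1b were not called. Of 21 genes of the unfolded protein response 4 rose (19.0%, near the share of all genes) and 0 fell, led by Asns (asparagine synthetase, 1.57 ± 0.26). The count was 2 with library totals, 1 without day 8 replicate 2, 2 without hour 0 replicate 11 and 7 without day 8 replicate 1. Of 17 clock genes 1 rose (Bhlhe40, 1.04 ± 0.16) and 2 fell (Nr1d1 and Npas2, the latter not without hour 0 replicate 10), and 2 rose without day 8 replicate 1 and 3 without hour 0 replicate 12. The list's median was -0.42, and 6 clock genes fell with library totals, 5 with a fit of the 6 libraries alone and 4 with limma-voom. DESeq2 and limma-voom each called 3 rises.

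The series is titled for KDM6B, a demethylase that removes the repressive H3K27 mark, so the writers and erasers of this mark were listed. Kdm6b (ENSMUSG00000018476, chromosome 11, 69398508 to 69413675) was at 230, 235 and 265 CPM at hour 0 and at 283, 208 and 184 CPM at day 8. The groups overlapped, and the log2 fold change was -0.11 ± 0.22 (edgeR adjusted p = 0.744). At hour 3 its mean was 2644 CPM. Kdm6a, the related demethylase on the X chromosome, was at 44.1, 54.7 and 54.7 CPM and at 62.5, 61.7 and 50.9 CPM and was not called. Ezh2, a methyltransferase of this mark, was at 14.3, 20.1 and 19.1 CPM and at 26.6, 28.5 and 27 CPM. Its groups did not overlap, but its call depended on the test (edgeR adjusted p = 0.0809, DESeq2 0.0433, limma-voom 0.025). Of the 12 members that passed the filter 2 rose (16.7%, near the 14.9% of all genes) and 1 fell, and 5 rose with DESeq2, 4 with limma-voom or a fit of the 6 libraries alone and 1 with library totals. Suz12, a core subunit of the same complex, rose by 0.71 ± 0.17, and Rbbp4 by 0.41 ± 0.14, a call lost when any library but hour 0 replicate 12 was left out. Phf1, an accessory subunit, fell by 0.72 ± 0.17.

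Epithelial and secretory genes stood out in a sort for stroma. Of 17 epithelial and myoepithelial genes 13 rose and 0 fell, with a median log2 fold change of 2.06. Krt8, a keratin of simple and luminal epithelium, was at 46.5, 48.3 and 87.7 CPM at hour 0 and at 824, 837 and 635 CPM at day 8 (log2 fold change 3.65 ± 0.32, edgeR adjusted p = 2.43e-07). The tight junction gene Cldn4 and Epcam, an epithelial adhesion molecule, rose by 3.29 ± 0.32 and 3.04 ± 0.39. The 4 members without a call were those of basal and myoepithelial cells, Krt5, Krt14, Krt17 and Trp63, with Krt14 at 112, 107 and 122 CPM and at 131, 128 and 113 CPM. Of 20 secretory genes that passed the filter 8 rose and 2 fell, of which 0 fell without day 8 replicate 1 or hour 0 replicate 12 and 1 without each of day 8 replicates 2 and 3 and hour 0 replicate 11. Lpo (lactoperoxidase of saliva) went from 50.7, 65.5 and 108 CPM to 709, 1053 and 781 CPM, Car6, the secreted carbonic anhydrase, from 2666, 4409 and 5791 CPM to 12864, 25604 and 26248 CPM, and the bactericidal-fold protein Bpifa2 rose by 4.99 ± 0.76. Mucl2, a mucin-like protein and the most abundant of the list, was at 30988, 51842 and 69241 CPM and at 39157, 98792 and 121431 CPM, which overlap, and was not called.

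Ranked by size, the 10 largest rises that met the naming rule included Wfdc18, Vaultrc5, Bpifa2, Mup5, Lrg1, Tgtp1, Rnu12, Ctss and Snora23, and the 10 lay between log2 fold changes of 5.93 and 4.33. Wfdc18, a secreted whey-acidic-protein family member, went from 1.54, 5.46 and 9.48 CPM to 392, 379 and 256 CPM. Lrg1, an acute-phase glycoprotein active on vessels, went from 0, 0.993 and 0.172 CPM to 8.75, 12.1 and 9.21 CPM. Rnu12 and Snora23, a spliceosomal and a nucleolar RNA, and the vault RNA Vaultrc5 were high in all 3 groups of the replicate run 1 to 9. Rnu12 averaged 40.8, 22.8 and 16.7 CPM in the groups of that run (hour 3, day 8 and day 23) and 0.820, 1.47 and 1.66 CPM in those of the other (hour 0, day 1 and day 2).

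The 10 largest falls that met the rule included Lrp1b, Csmd2, Grin2b, Ryr1, Lrp2, Mroh2a, Adgrv1, Hydin and Cacna1e, long genes known from neurons, muscle, kidney or ciliated cells. Lrp1b, a large endocytic receptor, was at 11.5, 11.7 and 7.59 CPM at hour 0 and had 0 counts in the 3 day 8 libraries, so it was at least 134-fold lower (floor of 3 counts over the group). Csmd2 and Grin2b each had 1 count at day 8, with ratios of 427 (exact 95% interval 76.1 to 16929) and 409 (72.9 to 16226), intervals that cover counting error only. The 10 genes averaged 10.2 to 28.3 CPM at hour 0 and 19.8 to 58.3 CPM at day 2, where each of the 10 was higher still, and 0 to 2.21 CPM at hour 3 and 0 to 1.05 CPM at day 23. Their exons span 8.49 to 25.2 kb, over which the rate of counts on receptor genes at hour 0 would give 1.14 to 3.38 CPM. Of the 2281 genes tested with up to 2737 bases of exon 9.38% fell and 22.2% rose, and of the 2278 with 8247 bases or more 22.7% fell and 11.6% rose. These falls therefore move with the replicate run and with gene length, whose part was not tested.

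A second ranking, chosen after these values were seen, kept protein-coding genes with a mean of 5 CPM or more at hour 3 or day 23. The genes named above were taken by rule from the lists and rankings, or were chosen after their values were seen. The largest fall of the second ranking was C7, a terminal complement component, at 23.2, 16.0 and 28.1 CPM at hour 0 and at 0.930, 0.375 and 1.07 CPM at day 8 (log2 fold change -4.80 ± 0.61, edgeR adjusted p = 9.68e-06). C7 averaged 12.4 ± 5.14 CPM at day 23. Angptl1, an angiopoietin-like secreted protein, followed the same course, at 21, 1.66 and 13.0 CPM on average at hour 0, day 8 and day 23. Hmcn2 (hemicentin 2, a matrix protein) went from 132, 95.1 and 138 CPM to 8.29, 6.90 and 23.1 CPM, Vit (vitrin) fell by 3.07 ± 0.40 and Dlk1, a Notch-related regulator of progenitor cells, by 3.28 ± 0.32. Dnah3, Alpk3, Nefm, Lrrc55 and Sfi1 completed the 10. Sfi1 moved with the replicate run, averaging 189, 119 and 415 CPM at hour 0, day 1 and day 2. At hour 3, day 8 and day 23 it averaged 6.09, 21.5 and 39.1 CPM. The part of the run in the second ranking was not tested. The rises of this ranking included H2-Eb1, Il1b and Cd83 (of activated dendritic cells). Another was Car2 (a cytosolic carbonic anhydrase), which went from 2.88, 2.73 and 4.57 CPM to 49.4, 67.2 and 49.7 CPM.

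**Figure D4:**
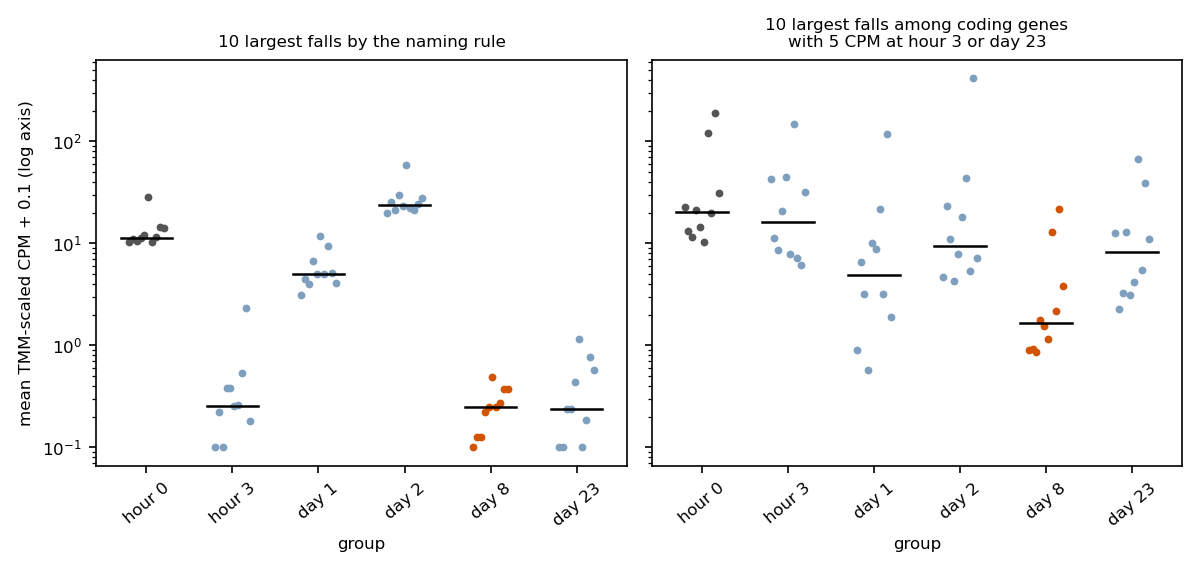
Group means (TMM-scaled CPM on a log axis, with a small constant added so that 0 can be drawn) of the 10 largest falls by the naming rule (left) and of the 10 largest among coding genes seen at hour 3 or day 23 (right), with 1 point per gene and a bar at the median. The left genes are at 10.2 to 28.3 CPM at hour 0 and at 2.21 CPM or less at hour 3, day 8 and day 23, and the right genes, C7 among them, had a mean of 5 CPM or more at hour 3 or day 23.

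Whether the day 8 state persisted was tested against day 23, which shares the day 8 libraries with the comparison above but lies in the same replicate run. Of the 11391 genes 1718 (15.1%) differed, 874 higher at day 23 (7.67%) and 844 lower (7.41%), and the total was 682 without day 8 replicate 2, 913 without day 8 replicate 3 and 753 with a fit of these 6 libraries alone. The filter used the day 8 and hour 0 libraries only, so members low at day 23 could pass it through day 8. Counts of genes lower at day 23 therefore describe the members that passed. Of 25 cell cycle genes 23 were lower at day 23, and 20 or more when 1 library was left out. Only 11 of the 25 had a mean of 5 CPM or more at hour 3 or day 23. Mki67 was at 16.2 ± 4.59 CPM at day 23 (SD, n = 3) against 137 ± 34.0 CPM at day 8 (log2 fold change -3.09, edgeR adjusted p = 3.67e-05). Epithelial genes were lower at day 23 in 14 of 17 (7 without day 8 replicate 2), with Krt8 at 297 ± 76.1 CPM. Of the 19 MHC class I genes 0 were called in either direction by edgeR, with a median log2 fold change of -0.07, and H2-K1 was at 1885 ± 256 CPM (edgeR adjusted p = 0.141 against day 8). Of 21 interferon-gamma-responsive genes 2 were lower at day 23 and 0 higher, and 0 were lower without day 8 replicate 1. Cxcl9 was at 107 ± 26.2 CPM and Gbp2 at 234 ± 88.7 CPM. Resting fibroblast genes were higher at day 23 in 14 of 29 (9 without day 8 replicate 2) and lower in 0. Gsn was at 14244 ± 4201 CPM (log2 fold change 1.25 against day 8, edgeR adjusted p = 0.00227) and Clec3b at 470 ± 68.3 CPM. Growth factors were higher in 16 of 36 (6 without day 8 replicate 2) and lower in 4 (1 without day 8 replicate 1), Hbegf among them (log2 fold change -1.94, edgeR adjusted p = 3.67e-05). Cholesterol synthesis genes were higher in 13 of 18 and lower in 0, with Sqle at 33.6 ± 4.64 CPM. Rgs5, at 73.1 ± 3.67 CPM at day 8, was at 7.20 ± 5.26 CPM at day 23. C1qa, at 21.3 ± 3.55 CPM at day 8, was at 8.12 ± 3.88 CPM and was not called (edgeR adjusted p = 0.0834).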

How the data were processed

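RNA-seq was read from 18 libraries of 6 groups (3 each), of which the 6 of day 8 and hour 0 were compared. The deposited values are whole-number counts of reads per gene, not normalized, and the submitters' processing notes name FastQC, STAR, Subread, DESeq2 and mm10. The annotation release, the use of strand and the treatment of multiply mapping reads are not given in the sources used here. Gene IDs were paired with symbols through GENCODE on GRCm38 (55141 of 55401 matched; the 260 others held 0.0241% of counts).

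Genes with 5 CPM or more in 3 of the 6 libraries (11391) were fitted over all 18 libraries with edgeR 4.0.16 in R 4.3.3 (quasi-likelihood test, TMM scaling, 1 mean per group, 12 residual degrees of freedom), and p-values were adjusted by Benjamini-Hochberg over all of them. The SE is the log2 fold change over the square root of its F statistic. The p-values measure the spread between these mice. On simulated counts for the 11391 genes of day 8 against hour 0, 99 of 100 genes changed by a log2 fold change of 2 and 57 of 100 changed by 1 were recovered. Of the unchanged genes 11 were called. The changed genes were drawn from those with a mean of 10 CPM or more, and no difference in run or background was simulated. These shares therefore do not describe weaker genes or such differences.

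The members and gene lists were chosen with earlier results of these data known. Named by rule were the 10 largest rises and falls with a mean of 10 CPM or more in the higher group and no overlap, up to 4 changed members per list, and 10 fixed genes; predicted models, receptor segments and mitochondrial genes were left out of the rankings. A second ranking (coding genes with 5 CPM at hour 3 or day 23) and other genes named were chosen after values were seen. Some genes that the rule names are not reported here. Alternatives used DESeq2 1.42.0, limma 3.58.1 (voom), other scalings and filters, and left out each library. Promoters came from RefSeq (GRCm38.p6). Intervals and floors cover counting error only.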

Additional observations from a re-analysis of the deposited data

How the results depend on the processing

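Across 17 alternatives set out at the start and 2 chosen after seeing the data (coding genes alone, and a mean of 5 CPM at hour 3 or day 23), 121 of the 147 called genes named by rule kept their call and direction wherever they were tested. The list members and named genes that were called did not change direction under any of these. For day 8 against hour 0, against 3510 changed genes, 12041 changed with the filter of edgeR itself (3078 higher and 8963 lower, 25.56% higher) and 12724 with none (28.29% higher), since 27462 and 47402 genes, most of them low, were tested in place of 11391. Leaving out 1 library gave 2313 (without day 8 replicate 2) to 3138. Scaling by library totals gave 3957, of which 27.65% were higher against 48.49%. For day 23 against day 8, against 1718, a fit of these 2 groups alone gave 753, and leaving out 1 library gave 682 (without day 8 replicate 2) to 1931, with 913 without day 8 replicate 3. The cause of these differences was not tested. The share higher was 50.87% there, 33.25% with library totals and 28.4% with no filter. No paired analysis was possible because the groups compared share no replicate numbers. Depth limits genes under 5 CPM, where hour 0 carried more counts on receptor genes.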

Other observations

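Beyond the groups above, blood endothelial genes were higher at day 8. Of 11 that passed the filter 6 rose and 0 fell. Flt1, a VEGF receptor, was at 7.60, 10.4 and 6.72 CPM at hour 0 and at 37.2, 36.5 and 38.9 CPM at day 8, and Cdh5 (VE-cadherin) rose by 2.39 ± 0.50 (edgeR adjusted p = 0.00129). Flt1 did not move with the other endothelial genes in the early groups. It averaged 76.1 CPM at hour 3 and 238 CPM at day 1, where Cdh5 averaged 4.36 and 4.11 CPM and Pecam1 3.65 and 2.27 CPM. Of 7 glial genes that passed 1 rose and 2 fell (3 rose with a fit of the 6 libraries alone). The shares were 14.3% and 28.6%, against 14.9% and 15.9% of all genes. Erbb3, a neuregulin receptor, went from 29.0, 29.2 and 37.8 CPM to 118, 157 and 133 CPM, whereas Cdh19, a Schwann cell cadherin, fell by 0.92 ± 0.18. Of 5 erythroid genes 3 passed the filter, 2 rose and 0 fell. None of the 3 would have passed on hour 0 alone, and none had a mean of 5 CPM at hour 3 or day 23. Hba-a2, a haemoglobin chain, was at 1.64, 0.621 and 1.29 CPM at hour 0 and at 15.9, 12.6 and 7.14 CPM at day 8, and it had 0 counts at day 23. Of 13 acute phase genes 5 passed the filter, 2 rose and 1 fell. Hp (haptoglobin) rose from 4.52, 5.46 and 2.24 CPM to 32.3, 32.3 and 26.6 CPM and Lcn2 (lipocalin 2, which withholds iron from bacteria) by 1.94 ± 0.50. Lbp, which binds bacterial lipopolysaccharide, fell from 51.4, 43.7 and 35.0 CPM to 29.6, 27.4 and 28.0 CPM, a call lost without day 8 replicate 2 or 3 or hour 0 replicate 10. Of 14 complement genes 0 rose and 2 fell (14.3%, near the 15.9% of all genes), C7 and Cd55. The count of falls was 5 with library totals or a fit of the 6 libraries alone and 4 with DESeq2 or limma-voom. Cd55, an inhibitor of complement on cells, lost its call without day 8 replicate 1 or 2 or hour 0 replicate 10 or 12. C3, the central component, was at 4212, 3869 and 5299 CPM at hour 0 and at 8201, 4372 and 6582 CPM at day 8 and was not called.

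Some groups were gathered by symbol or by annotated RNA class after the data were seen and are given as a description, with no test. The summed level of cytosolic ribosomal protein genes was 7639 to 9417 CPM at hour 0 and 13179 to 14649 CPM at day 8, and that of the nuclear respiratory chain subunits was 2454 to 2674 and 3659 to 4650 CPM. Histone genes of the Hist1 to Hist4 clusters summed to 430 to 491 CPM at hour 0 and 1004 to 1478 CPM at day 8. Small nuclear and nucleolar RNAs summed to 528 to 612 CPM and 1629 to 1852 CPM. In this order, the members that passed the filter had median log2 fold changes of 0.69, 0.71, 2.03 and 2.53. Most of these transcripts are short. The 2281 genes tested with up to 2737 bases of exon had a median log2 fold change of 0.22. For the 2278 with 8247 bases or more it was -0.13. Rnu12, Snora23 and Vaultrc5, members of the last group, were high in each group of the replicate run 1 to 9, as given above. The parts of length and of the run in these levels were not tested.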
